A study of Homo sapiens with 2 samples.

Results

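The genes described here encode endogenous protease inhibitors and the kallikrein serine proteases. They comprise the serpins, the cystatins, the Kunitz inhibitors (SPINT), the Kazal inhibitors (SPINK), the proteins with a WAP domain (WFDC genes, SLPI and PI3) and the kallikreins (KLK). Members were taken by gene symbol from the rows of the array that the platform annotation assigns to a single gene, whatever their values, which gave 83 of 22411 genes. Each of the 83 had 1 row. They were 30 serpins, 12 cystatins, 4 Kunitz inhibitors, 9 Kazal inhibitors, 15 WAP proteins, of which the pseudogene WFDC21P is one, and 13 kallikreins.

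The expression values came from 2 Affymetrix Human Transcriptome Arrays, 1 hybridised with RNA of TDM-1 resistant cells and 1 with RNA of untreated parental cells. Both are labelled as the gastric carcinoma line NCI-N87, which carries an amplified HER2 gene. TDM-1 is the labels' spelling for trastuzumab emtansine, an antibody-drug conjugate that carries a microtubule poison into cells with HER2 on their surface. The labels state neither the dose or duration of selection, nor whether the line is a clone, nor whether drug was present at harvest.

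Secreted and cytosolic inhibitors bind proteases tightly and end their activity. Serpins do so by trapping a serine protease after it cuts their exposed loop, cystatins by blocking the active site of papain-like cysteine cathepsins, and Kunitz, Kazal and WAP inhibitors by fitting a rigid loop into the active site of serine proteases. Kallikreins are secreted serine proteases made by glandular and squamous epithelia, where several of them act in cascades. In epithelial tumours these genes belong to the secreted products that shape pericellular proteolysis.

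With 1 array per group there is no spread between cultures against which a difference can be held, so no test was made and every value describes these arrays. Each difference is the resistant value less the parental one, on the log2 scale of the deposited table. A gene was called higher or lower when this difference was at least 1 in size and the higher of its values reached the floor of 5.79. The floor is the median, over all genes, of the higher of the 2 values of each gene. It is not a limit of detection. Where the lower value lay under the floor, the fold was computed against the floor and is written as "at least". Probes of different rows differ in efficiency, so values of different genes are not compared as amounts.

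The largest differences among the 83 genes were the fall of the cystatin gene CST7 and of the kallikrein gene KLK7 on the resistant array, and the rise of the serpin gene SERPINB9. In all, 3 members (3.61%) were called higher and 13 (15.7%) lower, 19.3% together, against 4.79% higher and 4.56% lower, 9.35% together, of all genes. The median difference of the 83 was -0.07, beside 0.03 over all genes. In RNA of a whole culture, fewer cells that express a gene and less of its RNA per cell cannot be told apart. Of the 83, 28 reached the floor on at least 1 array, whereas 55 lay under it on both and could not be called. Another 5 of the 28, namely CST2, SERPINI1, KLK13, CSTB and KLK1, differed by 0.5 to 1. SPINK2, WFDC10A and KLK2 had identical deposited values on both arrays.

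**Figure D1:**
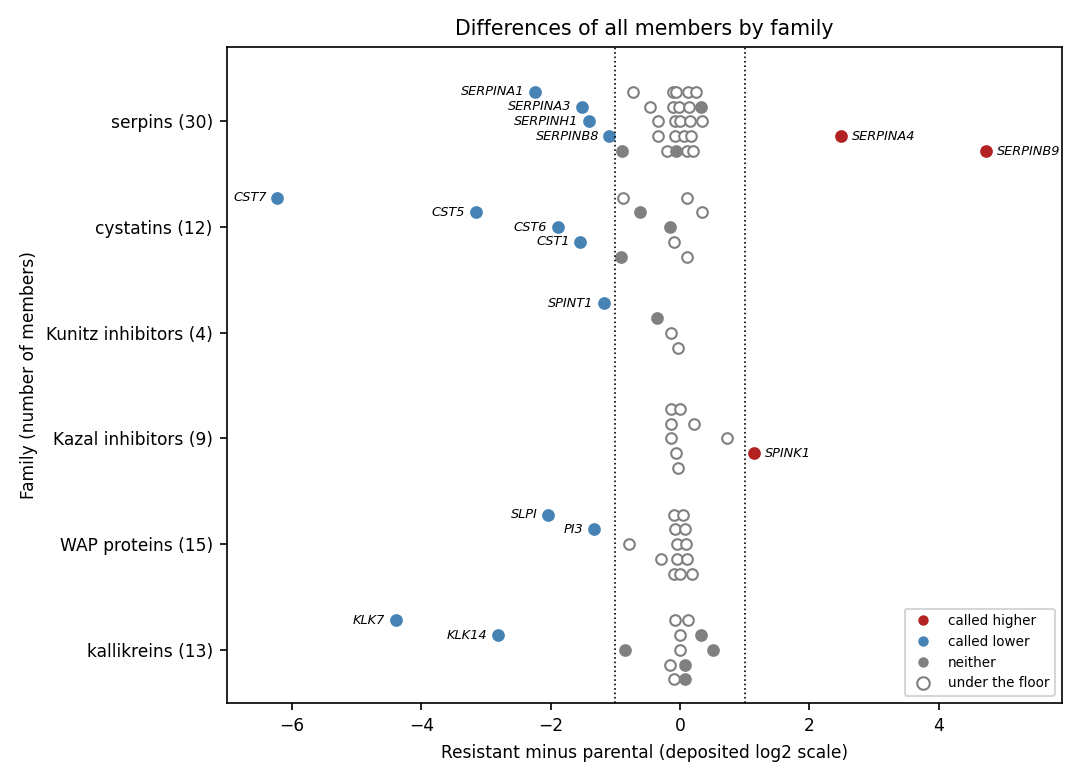
Difference between the resistant and the parental value (x axis, log2) of each of the 83 genes by family (y axis), with dotted lines at a difference of 1 in each direction. Filled points reached the floor on at least 1 array and open points did not. The 3 genes called higher are SERPINB9, SERPINA4 and SPINK1, and the 13 called lower run from CST7 at -6.23 to SERPINB8 at -1.09.

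The rows carried signal of the labelled epithelium. Of 6 measured genes of gastric carcinoma and epithelium, all reached the floor on both arrays. EPCAM, an epithelial surface glycoprotein, was 13.75 on the resistant and 13.18 on the parental array. The other 5 had negative differences, and CDH1, encoding E-cadherin, was called lower, at 13.97 on the resistant and 15.07 on the parental array. Markers of leukocytes and hepatocytes, other cell types in which these inhibitors are abundant, were mostly near the bottom of the scale. Of 12 leukocyte markers, 11 stayed under the floor on each array, and the pan-leukocyte gene PTPRC was 4.06 on each. The exception was CD68, at 10.30 on the resistant and 10.56 on the parental array. None of 8 hepatocyte markers reached the floor, with ALB at 4.26 on the resistant and 4.63 on the parental array. Of 7 measured squamous markers, 3 were called lower, none higher and 4 neither (42.9% called, beside 9.35% of all genes). Their summed log2 values were 34.0 on the resistant and 53.1 on the parental array, a gap that came mostly from IVL (-8.68) and DSG3 (-7.59), while the third called gene, KRT14, differed by -1.31.

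The serpins differed in both directions, with 2 called higher, 4 lower and 24 neither (20% called, beside 9.35% of all genes). SERPINB9 encodes the intracellular inhibitor of granzyme B, with which cells withstand the granules of cytotoxic lymphocytes. It was 10.37 on the resistant and 5.63 on the parental array, a difference of 4.74 and at least 23.9-fold higher. SERPINB1, its neighbour among the measured members of chromosome 6, encodes an inhibitor of neutrophil elastase and cathepsin G. It was 11.33 on the resistant and 11.39 on the parental array, a difference of -0.06. The pair therefore split, 1 member rising by more than 4 log2 units and the other staying within 0.1. Their 15 nearest protein-coding genes that reached the floor had a median difference of 0.52, and SERPINB9 less that median was still 4.22.

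The promoter windows of this pair are shown because neighbours of the same clade gave such different values. Windows run from 250 bases before to 50 bases after an annotated start, 5′ to 3′ on the gene's strand, as RefSeq gives them on GRCh38.p14. Capitals mark each match to TATAAA or to GGGCGG on either strand, including overlapping matches. SERPINB9 has 1 TATAAA match, 30 bases before the start, and 2 GGGCGG matches. SERPINB1 has no TATAAA match and 2 GGGCGG matches on the other strand. Only exact matches were counted, and the SERPINB1 window holds tataag, which differs from TATAAA in its last letter.
SERPINB9, chr6:2903260-2903559, minus strand: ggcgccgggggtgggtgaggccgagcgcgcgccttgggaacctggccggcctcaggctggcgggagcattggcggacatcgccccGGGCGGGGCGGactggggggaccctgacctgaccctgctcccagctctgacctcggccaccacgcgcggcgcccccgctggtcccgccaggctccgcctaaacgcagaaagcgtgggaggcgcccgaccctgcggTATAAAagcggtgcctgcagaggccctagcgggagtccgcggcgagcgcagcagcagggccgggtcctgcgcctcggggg
SERPINB1, chr6:2841814-2842113, minus strand: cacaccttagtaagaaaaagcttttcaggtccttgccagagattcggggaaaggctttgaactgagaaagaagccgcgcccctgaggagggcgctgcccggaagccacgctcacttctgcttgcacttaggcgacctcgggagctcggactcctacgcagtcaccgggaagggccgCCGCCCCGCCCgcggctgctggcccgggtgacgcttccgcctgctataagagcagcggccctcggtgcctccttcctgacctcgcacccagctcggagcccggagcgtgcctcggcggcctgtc
Windows were found for 60 of the 83 members, and since some genes have several starts these came to 83 windows, of which 18.1% hold TATAAA and 31.3% GGGCGG. Of all 35116 windows in the table, 11.5% hold TATAAA and 45.0% GGGCGG. The windows hold 35 CpG dinucleotides in SERPINB9 and 27 in SERPINB1, beside a median of 14 over all windows. A match is a description of letters and not evidence of binding.

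The serpin A cluster on chromosome 14 also held genes that differed in opposite directions. SERPINA4, encoding kallistatin, an inhibitor of tissue kallikrein, was 7.11 on the resistant and 4.62 on the parental array, at least 2.50-fold higher. SERPINA1, encoding alpha-1-antitrypsin, the main circulating inhibitor of neutrophil elastase, was 6.30 on the resistant and 8.54 on the parental array, 4.74-fold lower. SERPINA3, encoding alpha-1-antichymotrypsin, an acute phase inhibitor of cathepsin G and chymase, was 5.55 on the resistant and 7.07 on the parental array, at least 2.42-fold lower. All of these are best known as products of the liver, whose markers lay under the floor here. The other 6 measured genes of the cluster, SERPINA10, SERPINA6, SERPINA11, SERPINA9, SERPINA12 and SERPINA5, lay under the floor with differences between -0.07 and 0.24. SERPINA4 stands between SERPINA12 and SERPINA5 in that order, so a gene that rose was flanked by genes that were under the floor on both arrays. The 20 nearest protein-coding genes that reached the floor had a median difference of 0.07.

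The remaining called serpins were lower. SERPINH1 encodes HSP47, a collagen chaperone of the endoplasmic reticulum that does not inhibit proteases. It was 6.88 on the resistant and 8.29 on the parental array, 2.65-fold lower. SERPINB8, an intracellular inhibitor of furin, was 7.50 on the resistant and 8.60 on the parental array, 2.13-fold lower. It was the called member nearest to the threshold. SERPINI1, encoding neuroserpin, an inhibitor of tissue plasminogen activator, lay just outside it at 5.85 on the resistant and 6.75 on the parental array, a difference of -0.90. That difference was -1.12, past the threshold, less the median of chromosome 3, and -0.37 less the median of its 20 nearest genes, so it turned on the region chosen. SERPINB5, encoding maspin, a clade B serpin of epithelial cells without known protease inhibition, was 11.58 on the resistant and 11.25 on the parental array and was not called.

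The other 21 serpins lay under the floor on both arrays. In the chromosome 18 cluster these were SERPINB12, SERPINB13, SERPINB4, SERPINB3, SERPINB11 and SERPINB7, between the measured ends SERPINB5 and SERPINB8. SERPINB3, encoding squamous cell carcinoma antigen, differed by -0.73, at 3.91 on the resistant and 4.65 on the parental array. It is nearly identical to SERPINB4, so their rows may share signal. The plasma and tissue serpins SERPINA7, SERPINC1, SERPIND1, SERPINE2, SERPINE3, SERPINF1, SERPINF2, SERPING1 and SERPINI2 completed the group. Of all under-floor members, SERPINE2, encoding protease nexin-1, came closest to the floor, with 5.15 on the resistant and 5.62 on the parental array.

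**Figure D2:**
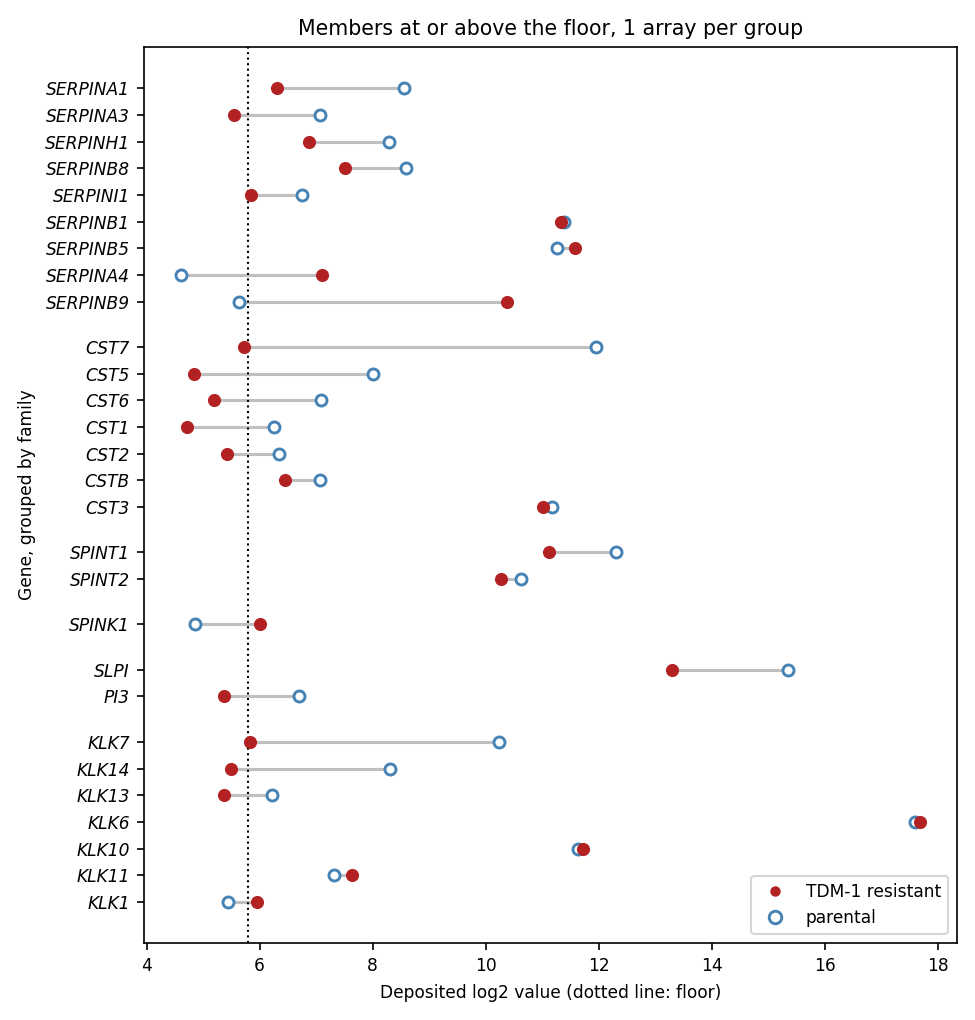
Deposited log2 value (x axis) on the resistant array (filled points) and the parental array (open points) for the 28 genes that reached the floor (dotted line at 5.79), by family. SERPINB9 and SERPINA4 lie far to the right on the resistant array, the resistant values of the 7 cystatins shown lie left of the parental ones, and KLK6, KLK10, SERPINB1 and CST3 nearly coincide.

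Over all genes, 4.56% were called lower and 4.79% higher, so no cystatin called higher among 12 lies near the latter share. Of the 12 measured, 4 (33.3%) were called lower, none higher and 8 neither, with a median difference of -0.75. CST7 encodes cystatin F, an inhibitor of cathepsins L and C that is best known from leukocytes and resides partly in their endolysosomes. It was 5.73 on the resistant and 11.96 on the parental array, at least 71.8-fold lower, while 11 of the 12 leukocyte markers lay under the floor on both arrays. CST5, encoding the salivary cystatin D, was 4.84 on the resistant and 8.0 on the parental array, at least 4.63-fold lower. CST6, encoding cystatin M/E, an inhibitor of legumain and cathepsin V in squamous epithelium, was 5.19 on the resistant and 7.08 on the parental array, at least 2.45-fold lower. CST1, encoding the salivary cystatin SN, was 4.71 on the resistant and 6.25 on the parental array, at least 1.37-fold lower.

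The cystatins called lower on chromosome 20 lay at one end of the cluster. In the order of the gene table, CST4, CST1, CST2, CST5 and CST7 follow one another among the measured members, with differences of -0.88, -1.54, -0.92, -3.16 and -6.23. CST2, encoding cystatin SA, was 5.42 on the resistant and 6.33 on the parental array and was the member nearest to the threshold among those that missed it. CST4, encoding cystatin S, lay under the floor. CST1, CST2 and CST4 are close paralogues whose rows may share signal, so their 3 differences may not be separate measurements. At the other end of the cluster CST3, encoding cystatin C, the general extracellular inhibitor of cathepsins, was 11.02 on the resistant and 11.18 on the parental array. CST11, CST8 and CST9 beside it lay under the floor, with differences between -0.09 and 0.34. None of the 6 other genes measured within the cluster was called, and the 20 nearest protein-coding genes that reached it had a median of -0.12.

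The stefins, cytosolic cystatins without a signal peptide, were not called. CSTB, encoding stefin B, was 6.45 on the resistant and 7.07 on the parental array, a difference of -0.62. CSTA, encoding stefin A of squamous epithelium and leukocytes, was under the floor on both arrays.

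Among the kallikreins, 2 of 13 (15.4%) were called lower and none higher, beside 4.56% and 4.79% of all genes. The nearest members on both sides of KLK7 differed by less than 0.1. KLK7, a chymotrypsin-like protease that degrades corneodesmosomes in skin, was 5.83 on the resistant and 10.23 on the parental array, 21.1-fold lower. Its resistant value lay just above the floor. KLK14, a trypsin-like kallikrein that activates other kallikreins, was 5.49 on the resistant and 8.30 on the parental array, at least 5.69-fold lower. On the same arrays the squamous genes IVL, encoding involucrin, and DSG3, encoding a desmosomal cadherin, were at least 97.6-fold and at least 77.6-fold lower. The part of a squamous programme in the kallikrein differences was not tested.

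KLK6 and KLK10 flank KLK7 among the measured members. KLK6, encoding neurosin, was 17.67 on the resistant and 17.60 on the parental array, a difference of 0.08. KLK10, a kallikrein of normal epithelia that is often reduced in tumours, was 11.72 on the resistant and 11.63 on the parental array, also a difference of 0.08. KLK11 was 7.63 on the resistant and 7.31 on the parental array. KLK6 lies above 16, the highest log2 value a 16-bit scan can give, so its value is not plain log2 brightness. A row annotated jointly to KLK9 and KLK8, which lies between KLK7 and KLK10 and was no member, was 6.14 on the resistant and 5.45 on the parental array, a difference of 0.69.

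KLK13, next to KLK14, was 5.37 on the resistant and 6.22 on the parental array. Its difference of -0.85 missed the threshold, but it was -1.14 less the median of its 20 nearest genes, which was 0.28. KLK1, encoding tissue kallikrein, which releases kinins, was 5.94 on the resistant and 5.44 on the parental array. The other 6 kallikreins, KLK15, KLK3, KLK2, KLK4, KLK5 and KLK12, lay under the floor with differences between -0.16 and 0.12. KLK3, encoding prostate-specific antigen, and KLK2 are close paralogues.

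Promoter windows of KLK7, KLK14 and KLK6 are printed because the first pair fell and KLK6, next to KLK7, did not. Capitals again mark TATAAA and GGGCGG on either strand. For KLK7 and KLK14 the first of 3 windows in the table is given, and KLK6 has 1.
KLK7, chr19:50983868-50984167, minus strand: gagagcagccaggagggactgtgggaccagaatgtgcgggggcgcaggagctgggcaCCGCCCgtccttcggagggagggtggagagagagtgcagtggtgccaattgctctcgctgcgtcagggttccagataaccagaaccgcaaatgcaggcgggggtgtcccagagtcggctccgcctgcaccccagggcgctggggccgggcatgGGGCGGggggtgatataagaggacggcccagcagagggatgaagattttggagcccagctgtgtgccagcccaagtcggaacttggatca
KLK14, chr19:51082807-51083106, minus strand: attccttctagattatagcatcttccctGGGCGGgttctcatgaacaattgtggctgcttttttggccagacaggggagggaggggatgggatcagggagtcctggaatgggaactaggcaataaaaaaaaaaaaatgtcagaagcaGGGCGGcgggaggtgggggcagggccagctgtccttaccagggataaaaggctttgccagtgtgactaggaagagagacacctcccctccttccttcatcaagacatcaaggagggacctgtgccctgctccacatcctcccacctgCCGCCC
KLK6, chr19:50969542-50969841, minus strand: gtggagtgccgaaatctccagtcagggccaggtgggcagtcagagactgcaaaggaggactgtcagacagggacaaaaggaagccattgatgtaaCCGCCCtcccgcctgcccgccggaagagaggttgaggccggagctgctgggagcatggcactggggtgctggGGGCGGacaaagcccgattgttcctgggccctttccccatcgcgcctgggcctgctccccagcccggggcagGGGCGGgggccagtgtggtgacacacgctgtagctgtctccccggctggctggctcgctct
None of the windows holds an exact TATAAA, and near matches were not counted. The KLK7 window holds tataag, which differs from TATAAA in its last letter. The KLK14 window holds aataaa and gataaa, which each differ from it in the first letter. KLK7 has 2 GGGCGG matches, KLK14 has 3 and KLK6 has 3 in the windows printed. The CpG count was 16 for KLK7, 4 for KLK14 and 15 for KLK6.

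**Figure D3:**
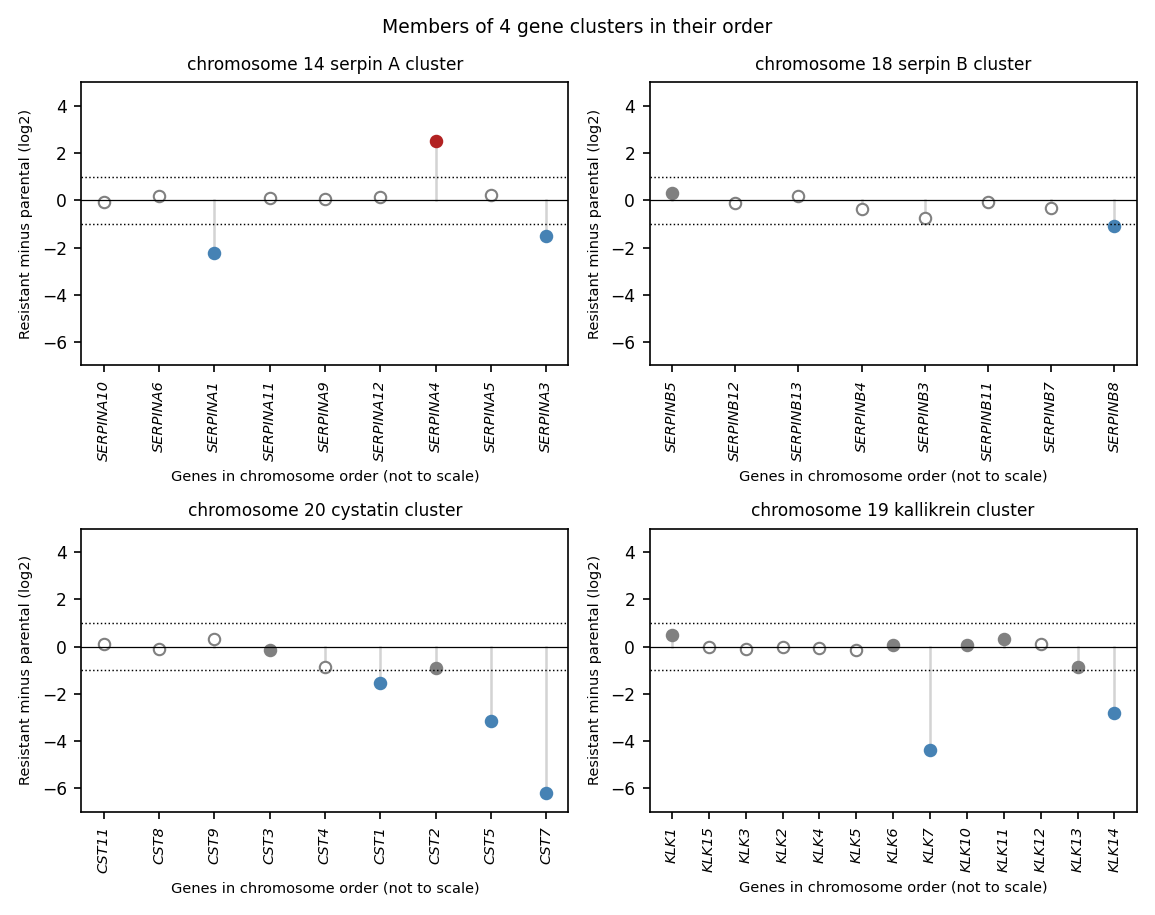
Resistant minus parental difference (y axis, log2) of the measured members of 4 gene clusters in chromosome order (x axis, not to scale), with dotted lines at 1 in each direction. Red points were called higher, blue points lower, grey points neither, and open points lay under the floor. KLK7 at -4.40 stands between KLK6 and KLK10, both at 0.08, and the 5 cystatins from CST4 to CST7 all lie below 0.

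Of 15 WAP proteins, 2 were called lower, none higher and 13 neither (13.3% called, beside 9.35% of all genes). SLPI encodes the secretory leukocyte protease inhibitor of mucosal secretions, which blocks neutrophil elastase and cathepsin G. It was 13.30 on the resistant and 15.34 on the parental array, 4.11-fold lower. PI3, encoding elafin, an inhibitor of elastase and proteinase 3 in squamous epithelium, was 5.36 on the resistant and 6.69 on the parental array, at least 1.87-fold lower. Both lie in the WAP cluster of chromosome 20, whose other 13 measured members all lay under the floor with differences between -0.30 and 0.18. These were WFDC2, WFDC3, WFDC5, WFDC6, WFDC8, WFDC9, WFDC10A, WFDC10B, WFDC11, WFDC12 and WFDC13, with the Kunitz genes SPINT3 and SPINT4. WFDC1 and WFDC21P, on other chromosomes, were also under the floor, WFDC21P with a difference of -0.78.

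Of 4 Kunitz inhibitors, only SPINT1 was called, and it was lower (25% called, beside 9.35% of all genes). SPINT1 encodes HAI-1, a membrane inhibitor of matriptase and of hepatocyte growth factor activator. It was 11.12 on the resistant and 12.30 on the parental array, 2.26-fold lower. SPINT2, encoding HAI-2, which also inhibits matriptase, was 10.28 on the resistant and 10.63 on the parental array, a difference of -0.35. Both inhibitor genes thus had values far above the floor on each array, and 1 passed the threshold.

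Of 9 Kazal inhibitors, only SPINK1 was called, and it was higher (11.1% called, beside 9.35% of all genes). It encodes the pancreatic secretory trypsin inhibitor, which is also made by gastrointestinal mucosa and tumours. It was 6.00 on the resistant and 4.85 on the parental array, at least 1.16-fold higher. This bound is small because the resistant value lay just above the floor. SPINK13, another gene of the chromosome 5 cluster, differed by 0.72 under the floor, at 4.62 on the resistant and 3.90 on the parental array. SPINK2, SPINK4, SPINK6, SPINK7, SPINK8, SPINK9 and SPINK14 lay under the floor with differences between -0.15 and 0.21.

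Proteases that the inhibitors are known to act on differed individually. Of 12 cysteine cathepsins and legumain, 3 were called higher, 2 lower and 7 neither, with a median difference of 0.08. Together 41.7% were called, beside 9.35% of all genes. CTSC, encoding cathepsin C, a target of cystatin F, was 11.15 on the resistant and 9.66 on the parental array, so it was higher while CST7 was lower. CTSL, encoding cathepsin L, another target of cystatin F, was not called, at 7.98 on the resistant and 8.0 on the parental array. CTSV, a target of cystatin M/E, was 7.80 on the resistant and 6.09 on the parental array, also higher while CST6 was lower. LGMN, encoding legumain, was 11.11 on the resistant and 10.81 on the parental array and was not called. The targets paired here with cystatin D, which are not a full list, were CTSS, which differed by -2.33, and CTSH, by 1.53. CST5 and these targets thus did not share a direction. CTSB, a target of cystatin C and stefin B, was 10.71 on the resistant and 12.35 on the parental array.

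The list of membrane serine proteases and HGF activation held 17 genes, among them EPCAM and SCNN1A, which are not proteases. Of the 17, 1 was called higher, 6 lower and 10 neither (41.2% called, beside 9.35% of all genes). None of the proteases paired here with HAI-1 was called, and the pairs are not a full list of its targets. ST14, encoding matriptase, was 11.79 on the resistant and 12.30 on the parental array, and PRSS8, encoding prostasin, was 12.82 on the resistant and 13.17 on the parental array. HGFAC, encoding hepatocyte growth factor activator, lay under the floor at 4.90 on each array and could not be called. Of the type II transmembrane proteases of the list, 4 other genes were lower. TMPRSS3 was 4.67 on the resistant and 8.72 on the parental array, at least 7.60-fold lower, and TMPRSS13 was at least 3.46-fold lower. TMPRSS11E was at least 2.22-fold lower, and TMPRSS4 differed by -1.86. The tryptase-like protease gene PRSS22 (-1.31) and SCNN1A (-1.17), a sodium channel subunit that such proteases cleave, were also lower. MET, the receptor of hepatocyte growth factor, was higher by 1.27, beside a median of 0.62 that chromosome 7 genes had.

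In the plasminogen system, PLAUR, the urokinase receptor gene, was 9.82 on the resistant and 8.10 on the parental array, and PLAT, encoding tissue plasminogen activator, was 5.46 on the resistant and 6.57 on the parental array. PLAU, encoding urokinase, was not called, at 6.23 on the resistant and 5.36 on the parental array. FURIN, chosen after the lists, was 7.87 on the resistant and 9.92 on the parental array, lower together with its inhibitor gene SERPINB8. No leukocyte serine protease (10 measured) and no pancreatic serine protease (9 measured) reached the floor. GZMB, encoding the granzyme that SERPINB9 inhibits, was 4.86 on the resistant and 4.78 on the parental array. PRSS1, encoding the trypsin that SPINK1 inhibits, and ELANE, encoding the elastase that SERPINA1, SLPI and PI3 inhibit, were likewise under the floor.

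**Figure D4:**
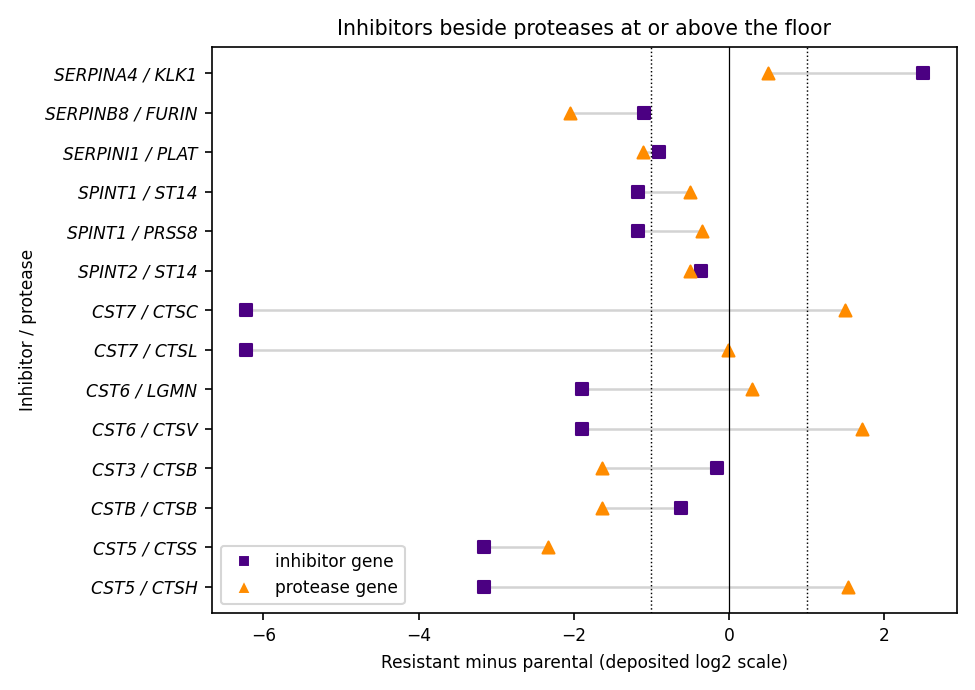
Difference between the resistant and the parental value (x axis, log2) of inhibitor genes (squares) and of a protease each is known to inhibit (triangles), for pairs in which both reached the floor (y axis), with dotted lines at 1 in each direction. CST7 at -6.23 stands opposite CTSC at 1.49, and CST6 at -1.89 opposite CTSV at 1.71, whereas SERPINB8 and FURIN both lie below -1.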

How the data were processed

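One array was analysed per group, TDM-1 resistant and parental NCI-N87. The authors' deposited table holds 70523 rows of values taken as log2; the base is not stated, and Affymetrix Expression Console produced them, per the submitters' processing notes. The algorithm, version, genome build and any between-array normalization were not given in the sources used here. Column medians were 4.76 on both arrays. Values above 16 occur, so a difference of 1 need not be exactly 2-fold in brightness.

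Rows with 1 platform symbol (23781) were named through the NCBI gene table for GRCh38.p14, 82 of the 83 members by gene identifier and 1 by symbol, and gave 22411 genes by the row with the highest mean. Rows with several symbols (1543) and rows the annotation does not list (45199) were not assigned. Gene order comes from the same table, whose coordinates are printed only with its own promoter windows. Those are RefSeq's, and 23 members had none. Chromosome medians were taken over protein-coding genes that reached the floor. Computation used Python 3.11.15 with pandas 2.3.3, scipy 1.17.1 and statsmodels 0.14.6. The size rule was run on simulated arrays with shifts and noise of set size, which cannot show the spread between cultures.

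The members, lists and the rule for named genes were chosen with earlier results of these data known: every called member, those nearest the threshold and called members of the companion lists are named. The inhibitor and protease pairs, the printed promoters and the comparison with nearest genes were chosen after values were seen. The alternatives tried were median centring, quantile normalization, loess centring (span 0.3), the mean of a gene's rows, chromosome and local medians, other floors and other thresholds. Precision is limited by the number of arrays.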

Additional observations from a re-analysis of the deposited data

How the results depend on the processing

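All 16 calls among the members were kept, with no change of sign, under quantile normalization, loess centring and subtraction of chromosome medians. They were also kept under subtraction of local medians, which was added after the values were seen. Median centring, the mean of a gene's rows and no floor kept all 16 as well, but these could hardly remove a call. Column medians were 4.76 on both arrays, each member had 1 row, and dropping the floor can only add calls. Chromosome medians added SERPINI1 and local medians added KLK13 as lower. CST7 ranged from -6.23 to -6.11, KLK7 from -4.68 to -4.35 and SERPINB9 from 4.22 to 5.02. A floor at the 75th percentile (8.42) left 1 member higher and 6 lower, since it removes genes of lower value. A 4-fold threshold left 2 higher and 6 lower, and a 1.5-fold threshold gave 3 and 17. The median difference of the members was -0.91 over those at or above the floor, a selection that favours genes that differ, and between -0.14 and -0.04 under the other alternatives. No paired analysis was possible because each group has 1 array. Depth does not apply to arrays, and values under the floor, with no detection calls, limit what can be said of 55 members.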

Other observations

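Among other inhibitors of endopeptidases outside the families above, 1 of 25 measured was called higher, 4 lower and 20 neither. Together 20% were called, beside 9.35% of all genes, and the median difference was 0. The alpha-2-macroglobulin relatives A2ML1 and CD109 were lower, A2ML1 at 4.68 on the resistant and 12.14 on the parental array and CD109 at 4.09 on the resistant and 11.26 on the parental array. SPOCK1, a secreted proteoglycan with inhibitor domains, was at least 3.19-fold lower, and APLP2, a membrane protein with a Kunitz domain, differed by -1.07. TFPI, encoding tissue factor pathway inhibitor, was higher, at 9.85 on the resistant and 8.69 on the parental array.

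Genes of coagulation differed beside it. F3, encoding tissue factor, was 7.95 on the resistant and 12.38 on the parental array, 21.5-fold lower. THBD, encoding thrombomodulin, was at least 4.40-fold lower, and F5, encoding coagulation factor V, was at least 3.87-fold higher. The other 12 of 15 measured genes of coagulation and protease-activated receptors were not called, so 20% were called, beside 9.35% of all genes. Of 11 genes listed for the cornified layer, 10 stayed under the floor on each array. The exception was IVL, at 3.71 on the resistant and 12.40 on the parental array. SPRR1A lay just under the floor, at 4.53 on the resistant and 5.74 on the parental array, and could not be called.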
